A study of Mus musculus with 18 samples.

Results

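Mouse bone marrow stromal cells (BMSCs) cultured in adipogenic induction medium (AI) were compared with the same kind of cells cultured in osteogenic induction medium (OI), both on day 4 and both without added FGF9. The comparison used 6 of the 18 RNA-seq libraries of the series, the 3 replicates of AI and the 3 of OI, chosen by their labels, and covered the 17631 genes with enough reads to be tested. The cells were wild type and, by the study's methods, came from collagenase-digested compact bone of femurs and tibiae. OI held ascorbate-2-phosphate, dexamethasone and beta-glycerol phosphate. The adipogenic medium held dexamethasone at a higher concentration, rosiglitazone, the phosphodiesterase inhibitor 3-isobutyl-1-methylxanthine and insulin. The 3 libraries of cells kept in culture medium (CM), also on day 4 without FGF9, are given beside both as a level without induction. By the study's methods CM was a commercial medium, whereas OI and AI were alpha-MEM with serum. Differences of OI or AI from CM therefore include that of the base medium. The remaining libraries received FGF9. They entered the choice of genes tested, the scaling and the shared estimate of spread, but not the group means compared. The media differed in several components at once, so the parts of the single components cannot be told apart. The sources used here give neither the age nor the number of the mice behind each library. The p-values measure only the spread between these libraries.

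BMSCs are progenitors that can become bone-forming osteoblasts or fat-storing adipocytes. Adipocyte formation runs through C/EBP factors and the nuclear receptor PPARG, the target of rosiglitazone, and ends in cells that build and burn triglyceride around a lipid droplet. Osteoblast formation runs through RUNX2 and osterix (Sp7) to a matrix of type I collagen that is then mineralised with the help of alkaline phosphatase. Dexamethasone acts through the glucocorticoid receptor, and the phosphodiesterase inhibitor raises cyclic AMP.

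The AI libraries held 18217102 to 19435516 counted reads and the OI libraries 16803771 to 19808459. Replicates of a medium correlated across genes with r of 0.986 to 0.989 on the log2 scale, and AI with OI libraries with r of 0.919 to 0.926. Levels are given as FPKM, the fragments of a gene scaled by its exonic length and by the library's total, in the order replicate 1, 2 and 3. Differences are log2 fold changes of AI minus OI from the read counts. A gene was called when it differed by at least 1 on the log2 scale in either direction with an adjusted p of at most 0.05 (edgeR's quasi-likelihood test, Benjamini-Hochberg over all 17631 genes), and "higher" and "lower" below mean called. In interferon-stimulated genes, OI replicate 1 stood apart, with far fewer reads than OI replicates 2 and 3. Results on those genes are given with and without it.

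AI and OI cells differed in a large part of the transcriptome. Of 17631 genes, 3859 were called (21.9%), of which 1376 were higher in AI (7.80%) and 2483 were lower (14.1%). The shares of 7.80% and 14.1% are the background for the counts in every gene list below. The median log2 fold change over all genes was 0.013, and the 3 AI values did not overlap the 3 OI values for 61.8% of all genes. At log2 fold changes of 3 or more in either direction, 205 genes were higher and 556 lower, and at 5 or more the counts were 53 and 122. The list of falls was thus longer than the list of rises at each of these sizes. In bulk samples a lower level cannot be told apart from fewer cells of the type that makes the RNA.

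**Figure D1:**
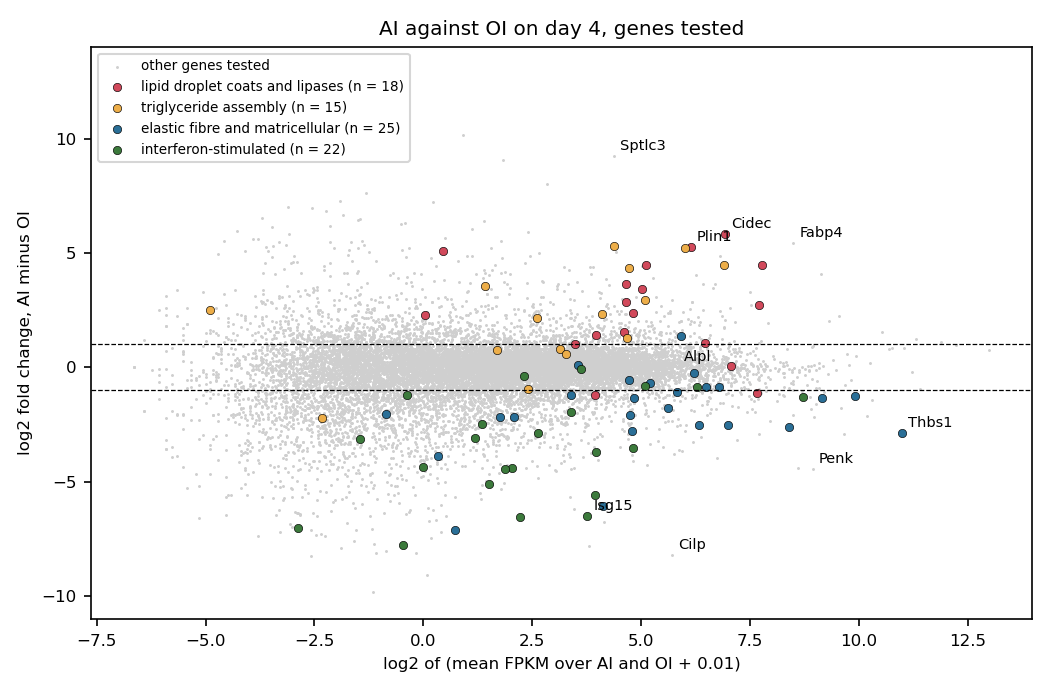
Log2 fold change of AI minus OI (vertical axis) against mean level as log2 of FPKM plus 0.01 (horizontal axis) for the genes tested, 1 point a gene, with the fold change threshold dashed. Most of the 18 lipid droplet genes and 15 triglyceride assembly genes lie above the upper line, most of the 25 elastic fibre and matricellular genes and 22 interferon-stimulated genes lie below the lower line, and Alpl lies near 0.

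Several of the 15 largest rises were in lipid enzymes. Sptlc3, a subunit of serine palmitoyltransferase that starts sphingolipid synthesis, was at 39.6, 41.3 and 44.3 FPKM in AI, at 0.05, 0.02 and 0.11 in OI and at 0 in every CM library. Its 3 AI libraries together held 6677 reads and the OI libraries 10, a ratio of 659 per library total (95% counting interval 358 to 1374). Elovl3, which elongates very long fatty acids, had 786 reads in AI and 1 in OI, a ratio of 775 with an interval of 139 to 30661 that reflects the single read. The peroxisomal thioesterase Acot5 had 1220 reads against 4 (ratio 301, interval 117 to 1106). These intervals cover counting error only. Among the other large rises were Adig (adipogenin, log2 fold change 5.05), Trarg1, a regulator of the glucose transporter GLUT4 (5.22), the glycerol phosphate acyltransferase Gpat3 (5.30), the cytochrome P450 Cyp2f2 (5.0) and Gzmd (5.51), which codes for a granzyme.

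Of the 15 largest falls in the same ranking, 6 were in interferon-stimulated genes, and secreted proteins were among the others. Some genes below its FPKM minimum, such as Eln, fell further than several of these and are given below. Cilp, a cartilage intermediate layer protein, was at 0.38, 0.36 and 0.40 FPKM in AI and at 99.0, 109.8 and 106.1 in OI (log2 fold change -8.19, SE 0.13, edgeR adjusted p = 1.34e-22), with 52.6, 52.2 and 46.0 in CM. The groups were far apart, with OI above CM and AI below it. Myoc (myocilin, a secreted glycoprotein) was at 0.10, 0.16 and 0.12 FPKM in AI and at 26.9, 27.5 and 29.1 in OI (-7.81). The small heat shock protein genes Hspb7 (-6.76) and Hspb2 (-5.32) were also lower, as were Pappa2, a protease of IGF-binding proteins (-6.19), and Mfap5, a microfibril glycoprotein (-6.04). Hpgd, which inactivates prostaglandins, fell from 20.5, 20.7 and 19.2 FPKM in OI to 0.51, 0.36 and 0.40 in AI (-5.65). Rab3b (-5.10) and Serpinb1a (-4.96) were lower too. The interferon-stimulated genes were Oasl2, Isg15, Ifit1, Ifi44, Ifit3b and Gbp3, and this class is described further below.

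The largest gains in mean FPKM were those of mitochondrially encoded transcripts, with mt-Co1 at 10527 in AI and 5819 in OI, followed among nuclear genes by Mgp (2230.4 against 723) and Scd1 (1057 against 58.2). The largest losses were those of Thbs1 (520.4 against 3553), Lox (462 against 1884), Col1a1 (203 against 1421), Gas6, a ligand of TAM receptors (724 against 1812), Penk, the enkephalin precursor (45.5 against 939), Vim, the intermediate filament vimentin (362 against 1176), Sparc (598 against 1326), S100a4 (37.2 against 744) and Spp1 (633 against 1281). Rn18s-rs5, an 18S ribosomal RNA copy, was also among the losses (1946 against 3519), with a log2 fold change of -0.95 that did not reach the threshold.

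Adipogenic transcription factors differed between AI and OI to unequal extents. Cebpa, the C/EBP factor of adipocyte maturation (ENSMUSG00000034957, chromosome 7 from 34818718 to 34821353, GRCm39), was at 128, 133 and 136 FPKM in AI, at 26.8, 28.6 and 25.9 in OI and at 17.3, 16.7 and 19.6 in CM. All AI values lay above all OI values (log2 fold change 2.2, SE 0.06, edgeR adjusted p = 2.97e-18). Pparg (ENSMUSG00000000440, chromosome 6 from 115337912 to 115467360) was at 20.9, 22.6 and 23.9 FPKM in AI, at 11.7, 12.5 and 12.5 in OI and at 7.92, 8.46 and 8.93 in CM. Its values did not overlap, but the difference (0.79, SE 0.09, edgeR adjusted p = 6.86e-08) was below the fold change of a call. Of 20 adipogenic transcription factors tested, 5 were higher and 2 lower (median 0.43, against 0.013 for all genes). The higher ones were Cebpa, Cebpb (1.51), the lipogenic factors Srebf1 (1.21) and Mlxipl, which senses glucose metabolites (4.11), and the preadipocyte zinc finger Zfp423 (1.83). Klf4 (-2.22) and Zfp467 (-1.64) were lower. Cebpd (0.32), Klf15 (0.45), Ebf1 (-0.76) and Prdm16 (-0.13) were not called. Of 14 genes that restrain or mark commitment, Foxo1 was higher (1.13), and Klf2 (-1.96) and Dlk1 (-1.58), both known to restrain adipocyte formation, were lower.

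Of 14 adipokines and secreted adipocyte proteins, 7 were higher and 4 lower (median 0.86). Adiponectin (Adipoq, ENSMUSG00000022878, chromosome 16 from 22965286 to 22976778) was at 182, 195 and 203 FPKM in AI, at 14.6, 13.7 and 15.6 in OI and at 3.57, 3.56 and 4.06 in CM, so both induction media lay above CM. The difference between AI and OI was 3.63 (SE 0.08, edgeR adjusted p = 4.59e-20). Angptl4, an inhibitor of lipoprotein lipase (3.86), Lcn2 (2.59), Rbp4 (2.38) and resistin (Retn, 1.11) were also higher. Adipsin (Cfd), a marker of mature adipocytes, went the other way. It was at 13.6, 13.6 and 13.6 FPKM in AI and at 21.2, 21.2 and 30.4 in OI (-0.93, edgeR adjusted p = 4.49e-05), all above the 1.17, 0.95 and 1.48 of CM. Resistin had the same order of media as adiponectin, at 5.36, 6.26 and 6.26 FPKM in AI, 3.01, 2.15 and 2.59 in OI and 0.07, 0.03 and 0.03 in CM. The members lower in AI were C1qtnf2 (-6.22), chemerin (Rarres2, -1.98), Metrnl (-1.41) and apelin (Apln, -1.12).

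**Figure D2:**
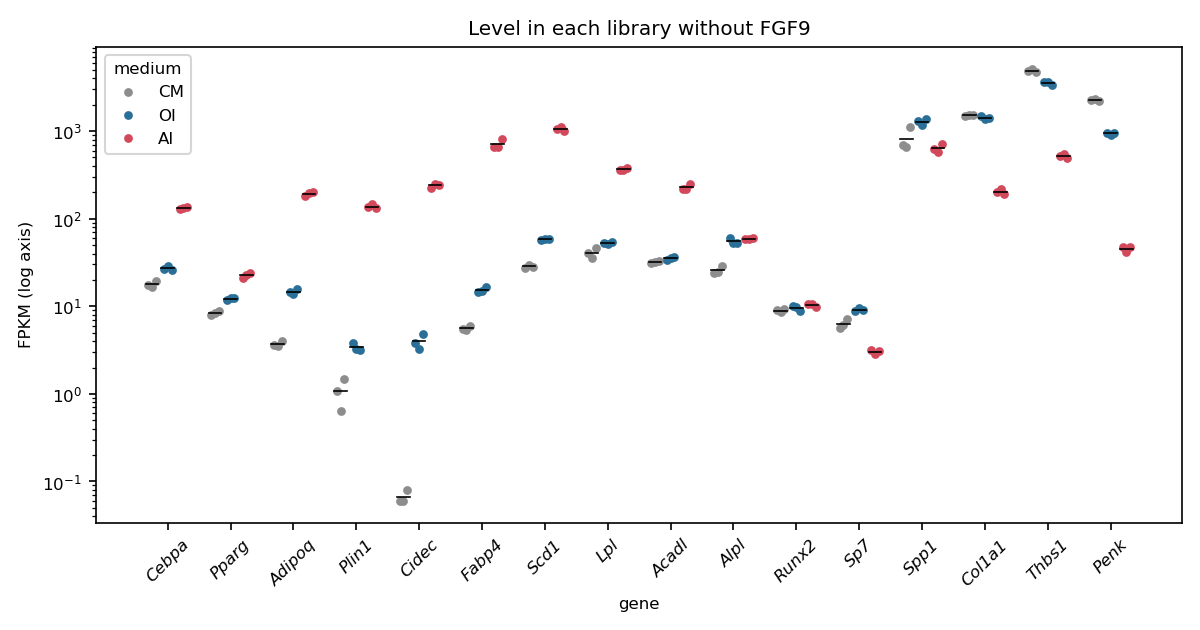
FPKM on a log axis of 16 genes in each library without FGF9, 1 point a replicate in CM (grey), OI (blue) and AI (red), with the mean as a black bar. Adipoq, Plin1 and Cidec rise from CM through OI to AI, Alpl sits at 52.2 to 60.3 FPKM in all OI and AI libraries, and Col1a1, Thbs1 and Penk are lowest in AI.

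Genes of lipid droplets were among the most uniformly higher. Of 18 coat proteins, lipases and their regulators, 15 were higher and 2 lower (median 2.55). The droplet coat perilipin (Plin1, ENSMUSG00000030546, chromosome 7 from 79369966 to 79382651) was at 136, 145 and 131 FPKM in AI and at 3.79, 3.24 and 3.21 in OI (5.24, SE 0.12, edgeR adjusted p = 4.96e-20). Cidec, which fuses droplets (ENSMUSG00000030278, chromosome 6 from 113401595 to 113412721), was at 227, 251 and 243 FPKM in AI, at 3.81, 3.27 and 4.87 in OI and at 0.06, 0.06 and 0.08 in CM (5.82). Neither gene had overlapping groups. The lipolytic genes rose with the coats. Adipose triglyceride lipase (Pnpla2) was at 410.3, 433 and 429 FPKM in AI and 16.8, 16.5 and 20.3 in OI (4.48), and Lipe (4.46), Mgll (2.84) and Lpl (2.72) were higher too. So were the lipase inhibitor G0s2 (3.65) and the lipase activator Abhd5 (2.38). The coats differed among themselves, with Plin5 at 5.11, Plin4 at 1.53, Plin2 at 1.07 and Plin3 lower at -1.20. Cavin1, a caveolar coat, was lower (-1.12), and Cav1 was at 142 and 126 FPKM (0.08, not called).

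Of 15 genes of fatty acid uptake and binding, 8 were higher and 3 lower (median 1.74). Fabp4, the adipocyte fatty acid carrier, was at 664, 651 and 807 FPKM in AI and at 14.7, 14.97 and 16.6 in OI (5.43, SE 0.10, edgeR adjusted p = 1.17e-21). The fatty acid translocase Cd36 was at 326, 326 and 334 against 31.2, 31.0 and 33.6 (3.27), and OI did not exceed the 34.0, 30.5 and 42.3 of CM. The acyl-CoA synthetases split. Acsl1 (4.85) and Acsl4 (2.02) were higher, Acsl5 was lower (-1.16) and Acsl3 was not called (0.79). Fabp3, the carrier best known from muscle, was lower (-3.05).

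Of 19 genes of fatty acid synthesis and desaturation, 10 were higher and 1 lower (median 1.00). The desaturase Scd1 was at 1057, 1108 and 1006 FPKM in AI and at 57.8, 58.7 and 58.2 in OI (4.09), while its paralogue Scd2 was at 71.4 and 73.7 on average (-0.13, not called). Fatty acid synthase (Fasn) was at 132, 147 and 104 against 17.3, 16.6 and 15.96 FPKM (2.85), acetyl-CoA carboxylase genes rose (Acaca 2.28, Acacb 2.43), and Thrsp, a lipogenic regulator, was higher by 4.07. Fads2, a desaturase of polyunsaturated fatty acids, was lower (-1.22). Its neighbour in that pathway Fads1 (-0.32) and the elongases Elovl5 (0.14) and Elovl6 (-0.28), the last of which acts on saturated and monounsaturated chains, were not called.

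Of 15 genes that assemble triglyceride, 9 were higher and 1 lower (median 2.34). The acyltransferase Agpat2 was at 221, 235 and 232 FPKM in AI and 8.72, 8.19 and 11.9 in OI (4.48). Gpd1, which makes glycerol phosphate, was at 122, 132 and 124 against 3.22, 2.83 and 3.37 (5.23). The final acyltransferases Dgat2 (4.33) and Dgat1 (2.94) and the glycerol channel Aqp7 (3.57) were higher, so that the called steps run from glycerol phosphate to triglyceride. Mogat2 was lower (-2.19) at a mean of 0.07 and 0.31 FPKM, and that call was lost without AI replicate 1 (edgeR adjusted p = 0.074), AI replicate 3 (0.082) or OI replicate 2 (0.0502).

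Of 25 genes of fatty acid oxidation, 15 were higher and 0 lower (median 1.11). Among the mitochondrial dehydrogenases, Acadl was at 220.1, 218 and 252 FPKM in AI and 34.0, 35.7 and 36.7 in OI (2.61), and Acadm was higher by 1.9. The peroxisomal thiolase Acaa1b was at 7.26, 6.57 and 7.16 against 0.39, 0.39 and 0.33 FPKM (4.15). The entry enzyme Cpt2 was higher (1.41), whereas Cpt1a (0.17) and Pdk4 (0.04), which diverts pyruvate from oxidation, were not called. Pdk4 was at 47.8 FPKM in AI and 43.8 in OI on average, both above the 8.39 of CM.

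Of 14 brown fat and thermogenic genes, 9 were higher and 1 lower (median 2.93). Dio2, which activates thyroid hormone, was at 55.5, 52.3 and 51.0 FPKM in AI, at 2.56, 2.57 and 2.56 in OI and at 7.78, 7.23 and 9.65 in CM (4.28). The coactivators Ppargc1a (2.39) and Ppargc1b (3.01) and the beta-3 adrenergic receptor Adrb3 (3.08) were higher. The defining gene Ucp1 stayed near the limit of detection, at 0.26, 0.10 and 0.13 FPKM in AI and listed at 0 in all 3 OI libraries (edgeR adjusted p = 0.00232). The brown fat determinant Prdm16 was at 0.69 and 0.70 FPKM (-0.13, not called).

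In the mitochondrial lists, some members were higher in AI and none was lower. All 22 genes of the tricarboxylic acid cycle list were tested, and 8 were higher and 0 lower (median 0.75), among them citrate synthase (Cs, 1.34) and Idh3a (1.69). Pyruvate carboxylase (Pcx), which feeds the cycle with oxaloacetate, stood out at 159, 170.0 and 147 FPKM in AI against 11.6, 12.98 and 11.4 in OI (3.64). Of 72 nuclear subunits of the respiratory chain, 8 were higher, 0 lower and 64 not called (median 0.64), where 7.80% of all genes were called higher. Cytochrome c (Cycs) was the largest, at 47.6, 45.3 and 55.9 against 10.8, 10.8 and 12.5 FPKM (2.03). Of 13 mitochondrially encoded subunits, 5 were higher and 0 lower (median 0.95, range 0.72 to 1.25). Their reads made up 4.0% to 4.36% of the AI libraries and 2.08% to 2.21% of the OI libraries. The mitochondrial ribosomal RNA mt-Rnr2 was higher by 2.23, although poly(A) selection was used, and its level in such libraries also depends on that step.

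The promoter of Cycs, the respiratory chain gene with the largest difference, held a full cyclic AMP response element. It is shown from RefSeq (GRCm38.p6, chr6:50566520-50566819, minus strand, 250 bases before to 50 after the start, read 5′ to 3′), with the motif in capitals.
Cycs promoter: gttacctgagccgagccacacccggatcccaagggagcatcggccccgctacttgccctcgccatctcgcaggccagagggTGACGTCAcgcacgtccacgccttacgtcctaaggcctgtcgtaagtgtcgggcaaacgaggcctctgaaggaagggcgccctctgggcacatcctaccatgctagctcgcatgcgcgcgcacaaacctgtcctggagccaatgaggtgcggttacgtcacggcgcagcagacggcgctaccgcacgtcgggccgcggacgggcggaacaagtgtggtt
This element (TGACGTCA, which reads the same on both strands) was present in 5 of 66 promoters of the respiratory chain list (7.58%), those of Cycs, Ndufa10, Ndufa11, Ndufb2 and Uqcrfs1, in 2.77% of the promoters of genes tested and in 1.79% of the 32851 promoters of the table. Of these genes, Cycs and Uqcrfs1 were higher in AI, and Ndufa10, Ndufa11 and Ndufb2 were not called. The element was in 3.70% of the 1082 promoters of genes higher in AI and 1.05% of the 2285 promoters of genes lower in AI. Among promoters of genes not called it was in 3.02%. In the list of cyclic AMP targets it was in 1 of 30 promoters, that of Dusp1. A match describes the letters in the window and says nothing of binding.

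Of 23 genes of glucose transport and glycolysis, 8 were higher and 3 lower (median 0.37). The insulin-responsive transporter GLUT4 (Slc2a4, 3.68), Pfkfb3, which makes the activator of phosphofructokinase (2.69), hexokinase Hk2 (1.52) and the lactate transporter Slc16a1 (2.35) were higher. Slc2a3 (-2.28), Pfkp (-1.23) and Aldoc (-2.68) were lower, and the basal transporter Slc2a1 was not called (0.37). Of 18 insulin receptor signaling genes, 4 were higher and 0 lower (median 0.37). They were Insr (1.18), Irs2 (1.9), Foxo1 (1.13) and Pde3b, the phosphodiesterase through which insulin lowers cyclic AMP (4.45). Of 24 genes of cholesterol synthesis and sterol control, 5 were higher and 4 lower (median -0.30). The sterol sensor Insig1 (2.43), Hmgcs1 (1.25), Cyp51 (1.56), Dhcr7 (1.62) and Pmvk (1.53) were higher. Among the lower ones was Stard4, which carries sterols between membranes (-1.34), so the genes of this list did not move as a unit.

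Glucocorticoid and cyclic AMP target genes differed in how they divided the media. Both media held dexamethasone, at a higher concentration in AI, so exposure to it was not equal. Of 20 glucocorticoid targets, 5 were higher in AI and 1 was lower (median 0.41). Fkbp5, a chaperone induced through the glucocorticoid receptor, was at 36.2, 39.6 and 38.4 FPKM in AI, at 29.4, 29.0 and 28.0 in OI and at 1.83, 1.5 and 1.53 in CM (0.31, edgeR adjusted p = 6.16e-05, not called). The zinc finger factor Zbtb16 was at 17.8, 18.04 and 14.4, at 12.1, 13.4 and 9.46 and at 0.26, 0.20 and 0.29 FPKM in the same order (0.43, not called). Tsc22d3 (GILZ) was at 97.5 and 90.3 FPKM in AI and OI on average against 10.9 in CM (0.021, not called), and Sgk1 at 137 and 137 against 28.2. The median of the list was 2.33 for AI minus CM and 1.61 for OI minus CM, differences that share the CM libraries. The metallothioneins separated AI from OI. Mt2 was at 367, 379 and 418 FPKM in AI, at 80.5, 86.6 and 114 in OI and at 11.7, 9.85 and 13.2 in CM (1.96), and Mt1 was higher by 2.06. The others were Lcn2 and Angptl4, given above, and Ddit4 (1.99). Ampd3 was lower (-2.37).

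Of 22 cyclic AMP and CREB targets, 10 were higher and 0 lower (median 0.99). The phosphodiesterases, which hydrolyse cyclic nucleotides, were the most distinct. Pde3b was at 64.5, 62.6 and 59.3 FPKM in AI, at 2.79, 2.71 and 2.53 in OI and at 2.59, 3.0 and 2.77 in CM. Pde4d was at 17.8, 17.7 and 15.9, at 1.69, 1.63 and 1.47 and at 1.43, 1.54 and 1.35 FPKM in the same order (3.33). For both genes OI lay at the level of CM. Pde4b (2.39), Pde10a (2.14), the G protein regulator Rgs2 (2.37), the inducible repressor Crem (1.85) and the orphan receptors Nr4a2 (2.53) and Nr4a3 (2.69) were higher, whereas Fos (-0.21) and Junb (0.26) were not called. The list's median was 2.13 for AI minus CM and 0.13 for OI minus CM. Nr4a1 was at 36.8, 35.6 and 45.8 FPKM in AI and at 9.61, 9.02 and 27.3 in OI, where replicate 3 was high (1.27). Its call was lost without OI replicate 1 (edgeR adjusted p = 0.057) or OI replicate 2 (0.061) and the fold change was 2.0 without OI replicate 3. Pde4a (-0.84) passed the fold threshold only without AI replicate 1 (-1.0), and Atf3 (-0.86) only without AI replicate 3 (-1.07).

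**Figure D3:**
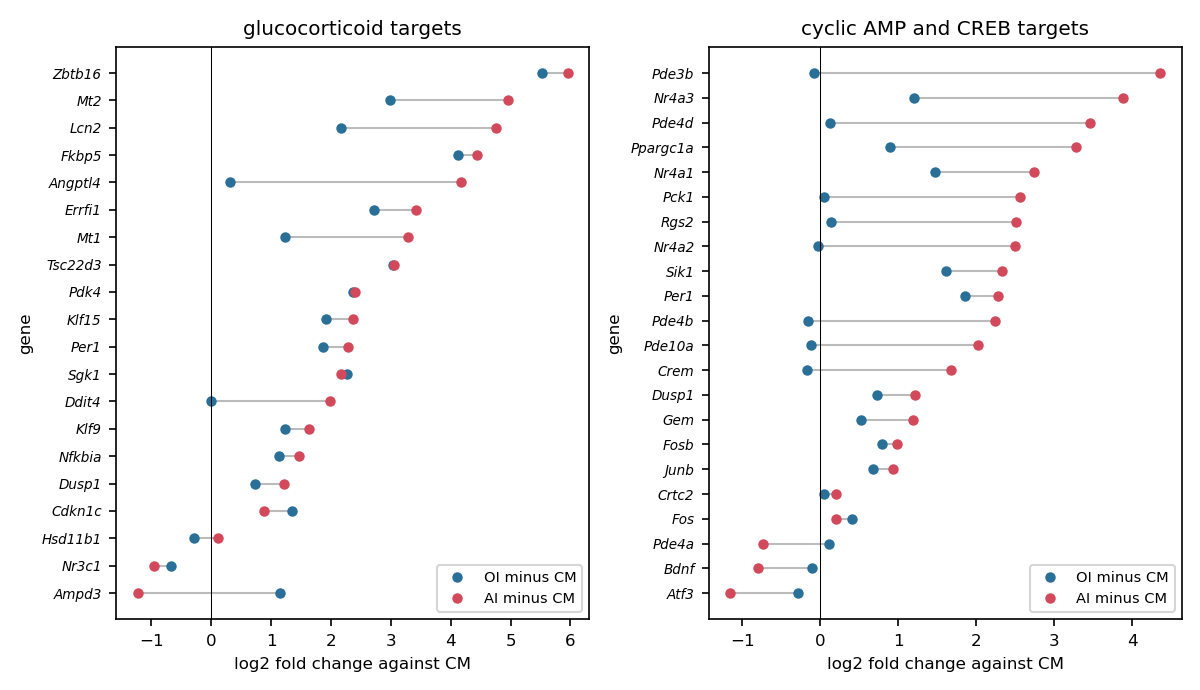
Log2 fold change against CM (horizontal axis) of OI (blue) and AI (red) for each of 20 glucocorticoid targets (left) and 22 cyclic AMP and CREB targets (right), with a grey line joining the media for each gene. Both media lie far to the right of 0 for Fkbp5, Zbtb16 and Tsc22d3, whereas only AI does for Pde3b, Pde4d and Rgs2, whose OI points lie near 0.

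Alkaline phosphatase (Alpl, ENSMUSG00000028766, chromosome 4 from 137469044 to 137523695) was at 59.3, 58.6 and 60.3 FPKM in AI and at 60.3, 53.3 and 52.2 in OI. The groups overlapped (0.016, SE 0.07, edgeR adjusted p = 0.867), and both lay above the 23.9, 24.9 and 28.5 of CM. Runx2 was at 10.6, 10.5 and 9.85 FPKM in AI, at 10.04, 9.74 and 8.89 in OI and at 8.98, 8.50 and 9.25 in CM (0.019, SE 0.08, edgeR adjusted p = 0.852). The sign of both differences changed with the scaling used, and neither passed in any setting tried. Osterix (Sp7), which acts after RUNX2, was at 3.19, 2.83 and 3.07 FPKM in AI and at 8.91, 9.60 and 8.99 in OI (-1.68, SE 0.10, edgeR adjusted p = 4.27e-13), with CM in between at 5.61, 6.19 and 7.14. Dlx5, a homeobox factor of osteoblasts, was at 7.77, 8.30 and 8.07 FPKM in AI against 3.97, 3.68 and 3.73 in OI, with groups that did not overlap and a fold change just under the threshold (0.99, SE 0.13). It was called without AI replicate 1 (1.01) and without OI replicate 1 (1.02). Of 20 osteoblast transcription factors, Msx1 was higher (1.98) and Sp7 and Gli1 were lower (median 0.14). That is no more than the 7.80% higher and 14.1% lower of all genes. Gli1 had 6 reads in AI and 20 in OI and lost its call without AI replicate 1 or 2 or OI replicate 2 or 3.

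Of 21 osteoblast and mineral matrix genes, 1 was higher and 15 were lower in AI (median -1.69). Type I collagen (Col1a1, ENSMUSG00000001506, chromosome 11 from 94827050 to 94843868) was at 199.8, 218 and 192 FPKM in AI, at 1471, 1372 and 1419 in OI and at 1506, 1524 and 1522 in CM. OI did not exceed CM, and AI lay far below both (-2.90, SE 0.07, edgeR adjusted p = 1.07e-19). Osteopontin (Spp1) was at 623, 572 and 705 FPKM in AI, at 1315, 1165 and 1363 in OI and at 694, 659 and 1101 in CM (-1.11). Bone sialoprotein (Ibsp) was at 375, 357 and 407 in AI and at 717, 622 and 654 in OI (-0.89, edgeR adjusted p = 4.87e-05, not called), and both were above the 79.9, 81.0 and 162 of CM. Osteocalcin (Bglap), the late marker, was low in both media at 0.87, 2.31 and 2.41 against 6.62, 5.68 and 4.82 FPKM (-1.69), and it may share reads with its near-copy Bglap2 (-1.02). Phex (-2.05), Mepe (-3.24) and Ifitm5 (-1.71) were lower at levels under 1.5 FPKM, and the parathyroid hormone receptor Pth1r (-2.02) and the neutral sphingomyelinase Smpd3 (-2.30) were lower too. The one member that was higher was matrix Gla protein (Mgp), an inhibitor of mineralisation, at 2134, 2050.2 and 2507 FPKM in AI, at 682, 699 and 788 in OI and at 373, 379.9 and 437 in CM (1.54). Of 11 genes of phosphate and pyrophosphate handling, 0 were higher and 3 lower (median -0.056). They were the ectonucleotidase Nt5e (-1.18), Abcc6, with 2 reads in AI and 29 in OI, and Fgf23, with 2 and 9 reads, whose call was lost without AI replicate 3 or OI replicate 1.

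Of 11 fibrillar collagens, 0 were higher and 5 lower (median -0.94), namely Col1a1, Col1a2 (-2.16), Col2a1 (-2.46), Col5a1 (-1.17) and Col5a2 (-1.48), while Col3a1 was not called (-0.73). Of 16 other collagens, 6 were lower and 1 higher (median -0.73). Col8a1 fell from a mean of 82.5 FPKM to 7.83 (-3.49) and the basement membrane chain Col4a5 from 11.6 to 0.62 (-4.32), whereas Col4a1 (0.19) and Col4a2 (-0.17) were not called. Col15a1, also of the basement membrane zone, was higher (13.3 against 1.72 FPKM, 2.86). Of 24 collagen-modifying enzymes, 6 were lower and 1 higher (median -0.49). The crosslinking lysyl oxidase (Lox) was at 475, 464 and 447 FPKM in AI and at 1924, 1890 and 1839 in OI (-2.12), and Loxl1 (-2.16), Loxl4 (-3.04) and the collagen chaperone Serpinh1 (-1.49) were lower. Loxl2 was higher (1.41), and the prolyl hydroxylases P4ha1 (0.49) and P4ha2 (0.61) were not called, nor was any other hydroxylase of the list.

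Of 16 small leucine-rich proteoglycans, which bind collagen fibrils, 9 were lower and 1 higher (median -1.30). Decorin (Dcn) was at 10.1 FPKM in AI and 59.6 in OI on average (-2.65), and Bgn (-1.30), Fmod (-1.16), Prelp (-1.95) and Omd (-2.10) were lower. Keratocan (Kera) was higher, at 1.47, 1.61 and 1.49 against 0.11, 0.10 and 0.14 FPKM (3.56). Of 25 elastic fibre and matricellular genes, 18 were lower and 1 higher (median -1.79). Thrombospondin 1 (Thbs1) was at 522, 545 and 494 FPKM in AI, at 3632, 3659 and 3367 in OI and at 4831, 5168 and 4691 in CM (-2.86, SE 0.07, edgeR adjusted p = 1.9e-19). Elastin (Eln) was at 0.03, 0.03 and 0.01 against 3.02, 2.95 and 3.84 FPKM (-7.12), and Mfap5 at 0.66, 0.55 and 0.46 against 32.9, 33.7 and 36.6. Fibronectin (Fn1, -1.33), periostin (Postn, -2.51) and Fbln5 (-2.07) were lower, and the proteoglycan versican (Vcan) was the member that was higher (1.35). Of 22 matrix proteases and inhibitors, 5 were higher and 7 lower (median -0.44). Mmp9 (3.34) and Mmp3 (2.30) were higher, and the macrophage elastase Mmp12 (-4.43), Adamts5 (-3.02) and the inhibitor Timp4 (-6.17) were lower.

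**Figure D4:**
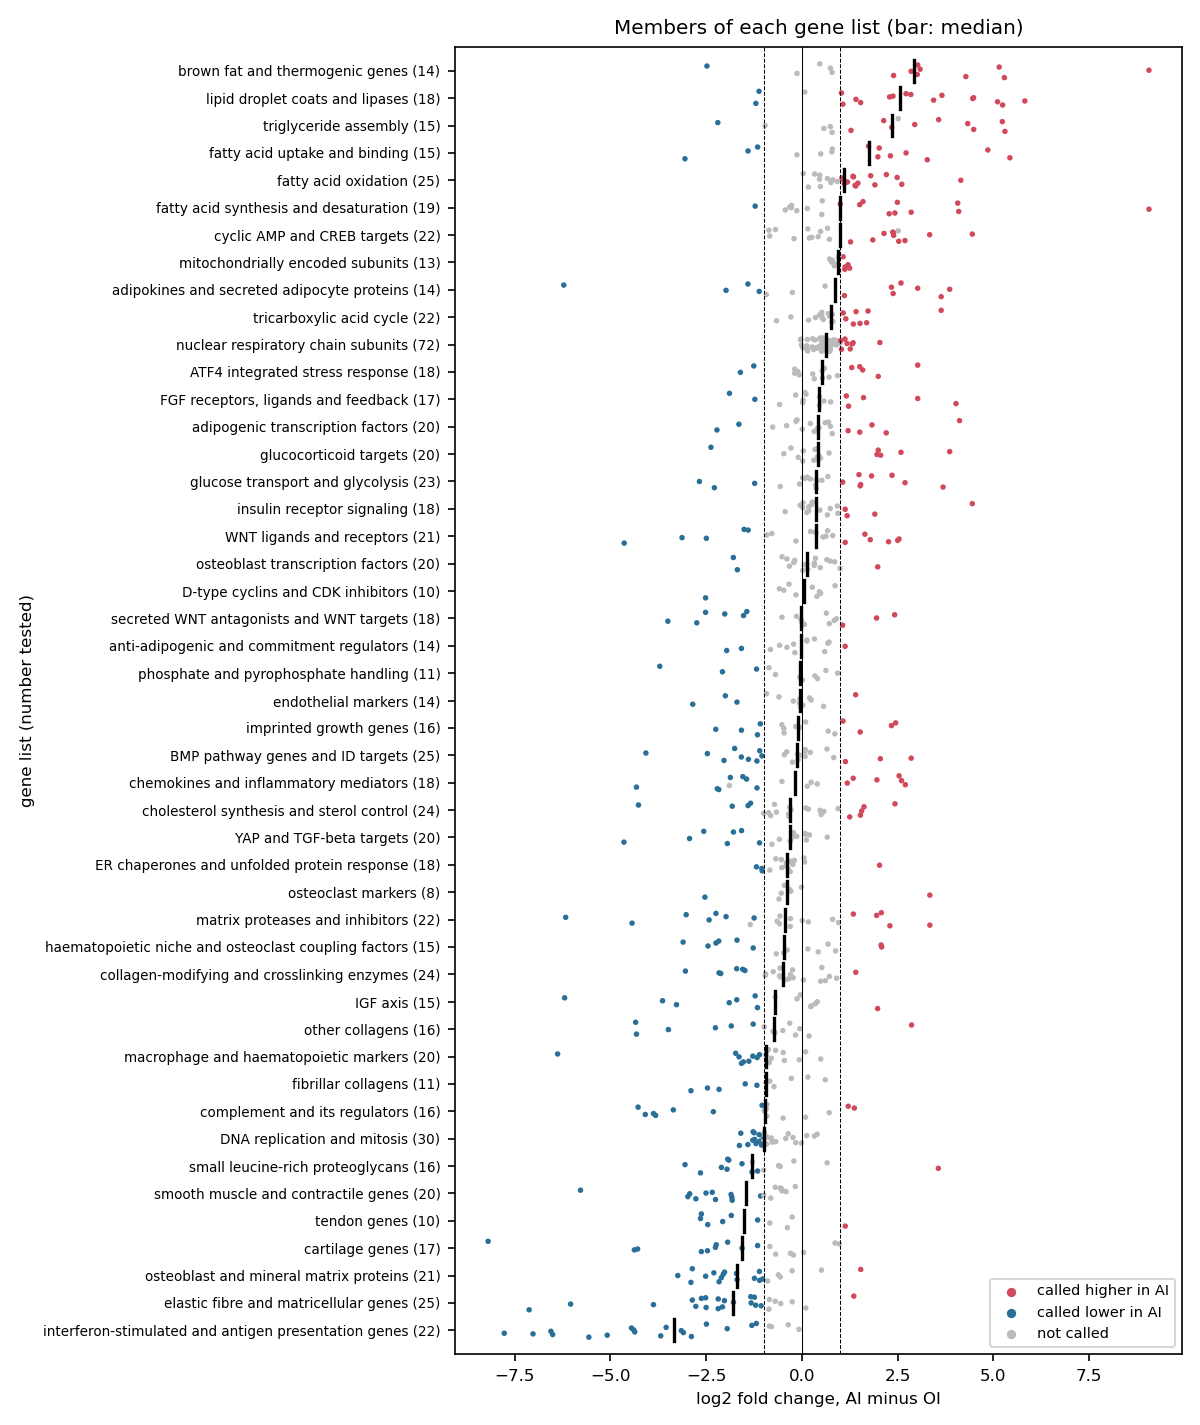
Log2 fold change of AI minus OI (horizontal axis) of the tested members of each gene list, 1 point a gene, coloured by call, with the list median as a black bar and the thresholds dashed. Lists are ordered by median, from interferon-stimulated genes (-3.35) at the bottom to brown fat and thermogenic genes (2.93) at the top, with lists of mixed sign between.

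Of 17 cartilage genes, 0 were higher and 10 lower (median -1.56). Comp was at 97.9, 98.6 and 100.01 FPKM in AI and at 563, 575 and 579 in OI (-2.62), and Col9a1 (-4.37), Col10a1 (-2.26) and Hapln1 (-1.16) were lower. The chondrocyte factor Sox9 (-0.30) was not called, and aggrecan (Acan) was near 0.15 FPKM in both media. Matn4 (0.98) passed the fold threshold without AI replicate 3 (1.02) or OI replicate 1 (1.09). Of 10 tendon genes, 6 were lower and 1 higher (median -1.50). Tenomodulin (Tnmd, -2.46) and Thbs4 (-2.07) were lower, the factor Mkx was higher (1.13), and the factor Scx was not called (-0.38).

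Of 20 smooth muscle and contractile genes, 0 were higher and 11 lower (median -1.45), with summed levels of 940.5 to 964.5 FPKM in AI and 2008 to 2262 in OI. Acta2 was at 213, 211 and 242 FPKM in AI, at 675, 706 and 829 in OI and at 872, 922 and 809.9 in CM (-1.82). The myosin light chain Myl9 was at 46.8, 47.8 and 52.5 against 156, 155 and 181 FPKM (-1.83), and Tagln (-2.26), Cnn1 (-2.77) and the coactivator Myocd (-5.78) were lower. Srf (-0.52), Flna (-0.56) and Vcl (-0.70) were not called. Myh11, the gene most specific to mature smooth muscle, was at 0.30 and 2.23 FPKM on average (-2.98). The promoter of Myl9 held a CArG box, the element bound by serum response factor, and is shown with that box in capitals (RefSeq, GRCm38.p6, chr2:156775214-156775513, plus strand).
Myl9 promoter: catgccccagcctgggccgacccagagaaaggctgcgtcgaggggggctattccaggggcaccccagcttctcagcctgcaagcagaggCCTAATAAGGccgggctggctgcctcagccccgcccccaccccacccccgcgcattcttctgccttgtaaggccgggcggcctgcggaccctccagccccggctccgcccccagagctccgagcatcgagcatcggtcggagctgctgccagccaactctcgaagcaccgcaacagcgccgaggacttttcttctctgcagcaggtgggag
A CArG box was in 4 of 17 promoters of this list (23.5%), those of Cnn2, Myl9, Srf and Vcl, in 1.63% of all promoters and in 1.28% of those of genes tested. Of these genes Myl9 alone was called. Of 20 YAP and TGF-beta targets, 0 were higher and 7 lower (median -0.30). Among them were Ankrd1 (-4.65), Axl (-2.56) and Ccn2 (-1.95). Ccn1 (-0.78) and the TGF-beta ligands and receptors of the list were not called.

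Signaling genes were mixed. Of 18 secreted WNT antagonists and WNT targets, 3 were higher and 6 lower (median -0.013). The antagonist Dkk2 was lower (2.59 against 27.6 FPKM, -3.50), as was Frzb (-2.74), while the antagonists Sfrp1 (1.06) and Notum (2.42) were higher. Among targets, Lef1 was higher (1.95), Ccnd1, Nkd2 (-1.52), Lgr5 (-2.01) and Ccn4 (-1.44) were lower, and Axin2 was not called (0.90). Of 21 WNT ligands and receptors, 6 were higher and 5 lower (median 0.37). Wnt9a (2.53), Wnt5b (2.50) and Wnt4 (2.26) were higher. Wnt10b, which favours bone over fat, was lower at 0.17 and 1.35 FPKM (-3.13), with Wnt2 (-4.64) and the R-spondins Rspo2 (-1.40) and Rspo3 (-1.51).

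Of 25 BMP pathway genes and ID targets, 3 were higher and 9 lower (median -0.12). Bmp4 fell from a mean of 23.5 to 6.12 FPKM (-2.03), and the antagonist Chrdl1 (-4.07) was lower, while Bmp2 (1.14) and Gdf5 (2.85) were higher. The BMP targets Id1 (0.06), Id2 (0.09) and Id3 (0.66) were not called and Id4 was lower (-1.76). Of 15 genes of the IGF axis, 1 was higher and 7 were lower (median -0.69). Igf1 was at 126, 122 and 115 FPKM in AI and at 29.5, 30.9 and 26.2 in OI (1.98), and the binding protein Igfbp2 was at 14.8, 12.99 and 15.9 against 120.2, 135 and 142 (-3.27). Igfbp6 (-3.64), Igfbp4 (-1.9) and Igfbp7 (-1.70) were also lower. The other ligand, Igf2, was lower as well, at 0.29, 0.14 and 0.21 against 0.49, 0.54 and 0.33 FPKM (-1.16). Of 16 imprinted growth genes, 4 were higher and 4 lower (median -0.10), with Peg10 (2.45) and Nnat (2.34) higher and Meg3 (-2.25) and Dlk1 lower. Of 17 FGF receptors, ligands and feedback genes, 5 were higher and 2 lower (median 0.46). The coreceptor Klb was at 5.96, 5.70 and 4.52 FPKM in AI, at 0.20, 0.46 and 0.29 in OI and at 0, 0.03 and 0.04 in CM (4.02), its ligand Fgf21 was higher at 0.54 against 0.057 FPKM (3.02), and Fgfr1 was higher by 1.22.

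Factors through which stroma acts on blood and bone-resorbing cells changed in part. Of 15 such genes, 2 were higher and 6 lower (median -0.47). RANKL (Tnfsf11), which drives osteoclast formation, was at 17.9, 16.4 and 19.3 FPKM in AI, at 3.61, 3.73 and 4.56 in OI and at 2.67, 2.50 and 2.88 in CM (2.08, SE 0.10, edgeR adjusted p = 1.49e-14). Its decoy receptor osteoprotegerin (Tnfrsf11b) was at 4.52, 4.46 and 3.82 in AI, at 22.04, 21.7 and 21.99 in OI and at 46.4, 47.6 and 48.7 in CM (-2.45). The groups did not overlap for either gene and the signs were opposite. Csf1, the macrophage growth factor, was lower (109 against 247 FPKM on average, -1.27), as were Il34 (-2.24) and Sema3a (-3.10), and Cxcl12, the niche chemokine, was not called (-0.67). Of 18 chemokines and inflammatory mediators, 6 were higher, among them Cxcl1 (2.70) and Cxcl14 (1.96), and 7 lower, among them Ccl2 (-2.17) and Ptgs2 (-1.54). Of 16 complement genes, 2 were higher and 7 lower (median -0.96). The C1 proteases C1ra (3.90 against 51.8 FPKM, -3.82) and C1s1 (-4.09) and the C1 inhibitor Serping1, at 3.55, 3.54 and 3.92 against 61.6, 67.8 and 71.4 FPKM (-4.28), were lower together. Cfi (1.37) lost its call without AI replicate 1 or 2 or OI replicate 1 or 3 (edgeR adjusted p of 0.060 to 0.14).

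Interferon-stimulated and antigen presentation genes had the lowest median of the lists (-3.35), with 0 of 22 higher and 18 lower. Isg15, a ubiquitin-like protein, was at 0.08, 0.39 and 0.44 FPKM in AI, at 4.17, 35.2 and 41.1 in OI and at 4.46, 4.34 and 5.54 in CM (-6.51, SE 1.11, edgeR adjusted p = 2.56e-05). Ifit1, which binds viral RNA, was at 0.73, 0.54 and 0.74, at 4.66, 44.3 and 40.6 and at 3.35, 6.89 and 6.82 FPKM in the same order (-5.56). In both genes OI replicate 1 lay at the level of CM and OI replicates 2 and 3 far above it, and all AI libraries lay below CM. Across the list, 10 of the 22 genes were at least 3 times higher in OI replicates 2 and 3 than in replicate 1. Without OI replicate 1 the same number, 18, were lower (median -3.71). With OI replicate 1 as the only OI library, an alternative chosen after seeing the data in which its spread is taken from the other groups, 11 were lower (median -2.16), and Ifit1 was not called (-2.87). What set the OI libraries apart was not tested. B2m, the light chain of class I molecules, was at 248, 229.9 and 289 FPKM in AI and at 517, 547 and 719 in OI (-1.31). H2-K1 (-0.80), H2-D1 (-0.85) and Tap1 (-0.36) were not called. Among 20 macrophage and haematopoietic markers, given below, 9 were also lower in AI. In OI replicates 1, 2 and 3, Csf1r was at 24.04, 23.93 and 28.62 FPKM and Ctss at 212, 204 and 264. For these markers OI replicate 1 did not stand apart as it did in the interferon list. The part of macrophages in the interferon results was not tested.

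**Figure D5:**
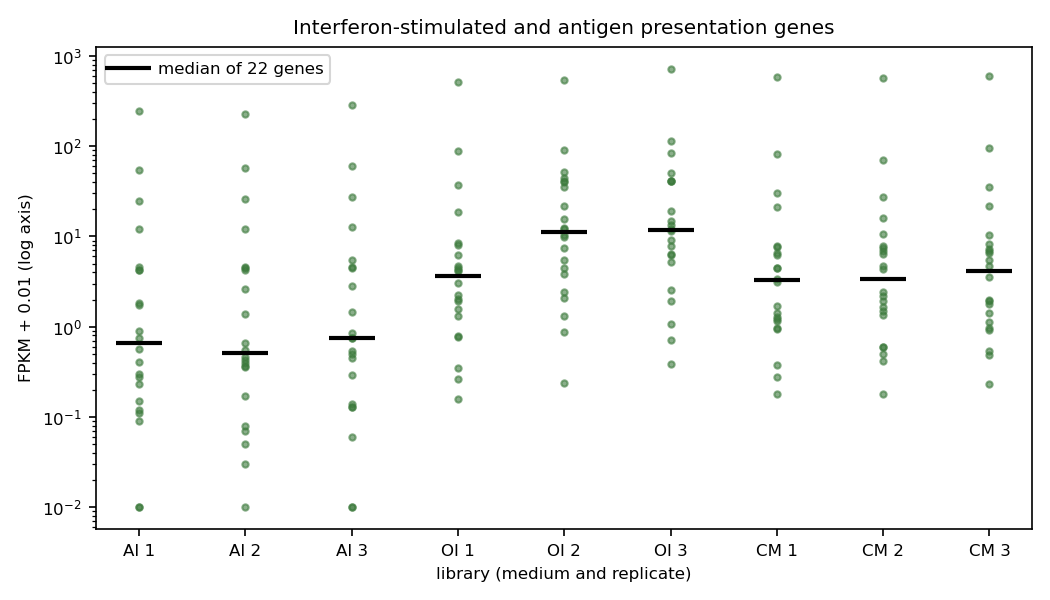
FPKM plus 0.01 on a log axis of 22 interferon-stimulated and antigen presentation genes in each library without FGF9, 1 point a gene, with the median as a black bar. The medians were 0.495 to 0.74 FPKM in AI, 3.60 in OI replicate 1, 11.2 and 11.7 in OI replicates 2 and 3 and 3.24 to 4.12 in CM.

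Promoters of this list held the interferon-stimulated response element, searched as GAAANNGAAA on both strands. The promoters of Isg15, Ifit1 and Ifit3 are shown because they carry the element more than once. They are from RefSeq (GRCm38.p6), with each match in capitals and overlapping matches joined. The Isg15 window is chr4:156200769-156201068 on the minus strand, that of Ifit1 is chr19:34640639-34640938 and that of Ifit3 is chr19:34583279-34583578, both on the plus strand.
Isg15 promoter: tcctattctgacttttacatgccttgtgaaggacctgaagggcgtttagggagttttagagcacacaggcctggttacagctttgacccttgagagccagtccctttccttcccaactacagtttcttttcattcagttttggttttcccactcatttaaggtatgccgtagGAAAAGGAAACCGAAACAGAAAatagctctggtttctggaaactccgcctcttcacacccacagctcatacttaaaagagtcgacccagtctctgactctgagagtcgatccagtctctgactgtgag
Ifit1 promoter: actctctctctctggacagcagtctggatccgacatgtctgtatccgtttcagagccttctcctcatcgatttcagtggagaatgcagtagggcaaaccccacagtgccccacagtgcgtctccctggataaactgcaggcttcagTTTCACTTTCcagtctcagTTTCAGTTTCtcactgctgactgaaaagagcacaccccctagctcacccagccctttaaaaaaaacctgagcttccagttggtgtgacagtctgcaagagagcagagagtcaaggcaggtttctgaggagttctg
Ifit3 promoter: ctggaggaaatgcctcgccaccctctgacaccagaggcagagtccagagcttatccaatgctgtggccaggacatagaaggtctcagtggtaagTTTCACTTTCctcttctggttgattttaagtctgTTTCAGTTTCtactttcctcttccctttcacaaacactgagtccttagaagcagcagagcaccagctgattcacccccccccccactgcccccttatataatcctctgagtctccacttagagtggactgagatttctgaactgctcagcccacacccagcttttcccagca
The element was in 8 of 19 promoters of the list (42.1%), those of B2m, Bst2, Ifit1, Ifit3, Isg15, Oas1a, Rsad2 and Stat2, and in 3.44% of all 32851 promoters. All of these genes were lower in AI. It was in 5.65% of the promoters of genes lower in AI, 2.31% of those higher and 2.65% of those not called.

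Cell cycle genes were lower in part. Of 30 genes of DNA replication and mitosis, 0 were higher and 13 lower (median -0.98), among them Mki67, Top2a, Ccna2 (4.51 against 11.3 FPKM on average) and Rrm2. The count fell to 8 and 3 when log2 FPKM was tested with limma after adding 0.5 and 1. Cyclin D1 (Ccnd1) was at 18.01, 18.8 and 18.8 FPKM in AI and at 96.7, 100.5 and 101.5 in OI (-2.51, SE 0.05, edgeR adjusted p = 1.21e-20), whereas Ccnd2 (0.39), Ccnd3 (-0.16) and the inhibitors Cdkn1a (0.49) and Cdkn1b (0.46) were not called. Of 18 genes of the ATF4 stress response, 5 were higher and 2 lower (median 0.53). Atf4 itself (0.32), Asns (0.28) and Chac1 (-0.07) were not called, and those that were higher included Sesn2 (1.30) and Slc7a11 (1.59). Of 18 ER chaperone and unfolded protein response genes, 1 was higher (Dnajb9, 2.03) and 3 were lower (median -0.38), near the 7.80% and 14.1% of all genes. Pdia6 was lower by -1.19, and Hsp90b1 (-1.04) and Pdia3 (-1.05) lay so near the threshold that both fell below it without AI replicate 2 or OI replicate 3, which left 1 lower gene, as did scaling by library size alone. Hspa5 was not called (-0.30).

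The labelled cell type was checked against the surface markers of the study's flow cytometry panel. Itgb1 (CD29, 245 and 433 FPKM in AI and OI on average) and Pdgfra (57.4 and 43.0) were present in both media and not called. Ly6a (Sca-1) was at 12.4, 11.7 and 17.7 FPKM in AI and at 173, 196 and 235 in OI (-3.94), and Cd44 was lower (18.2 against 41.6, -1.28). Among the markers that should be absent, Pecam1 was at 1.9 and 1.83 FPKM, and Ptprc (CD45) at 1.12 and 3.14 (-1.58). Cd34 was at 0.70, 0.83 and 0.82 in AI and at 13.8, 14.6 and 13.9 in OI (-4.26). It was at 11.7, 11.2 and 9.74 in CM, so its RNA was present in both OI and CM libraries. The panel measured protein on the cell surface, whereas these values are RNA of whole cultures on day 4.

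Macrophage RNA was present in both media. Of 20 macrophage and haematopoietic markers, 0 were higher and 9 lower (median -0.93), and their summed level was 1519 to 1761 FPKM in AI and 1437 to 1772 in OI. Lysozyme (Lyz2) alone was at 1182 and 791 FPKM on average (0.49, not called). The growth factor receptor Csf1r (10.4 against 25.5 FPKM), Adgre1 (7.26 against 19.7) and Ctss (72.8 against 227) were lower, whereas Cd68 (-0.85), Itgam (-0.46) and Cd14 (-0.07) were not called. None of the 20 was at 0 in a group. Of 14 endothelial markers, 1 was higher and 3 lower (median -0.062), beside 7.80% higher and 14.1% lower of all genes. Their summed level was 28.2 to 32.4 FPKM in AI and 30.7 to 31.8 in OI. Cdh5 (0.57) and Kdr (0.02) were not called. Of 8 osteoclast markers, Mmp9 was higher and cathepsin K (Ctsk, 20.5 against 111 FPKM, -2.53) was lower, and tartrate-resistant acid phosphatase (Acp5) was at 3.34 and 4.76 FPKM (-0.60). The part of these cells in the chemokine, complement, protease and interferon results was not tested.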

How the data were processed

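Poly(A) RNA was sequenced from BMSCs in 6 groups of 3 libraries. Reads were trimmed with cutadapt 1.9.1, aligned to GRCm39 with HISAT2 2.2.1 and counted with HTSeq 0.6.1 by the authors, who deposited raw read counts and FPKM for 56691 genes. The annotation release and strand setting are not given in the sources used here, so overlapping genes may share reads. The deposited FPKM equal the count divided by exonic length and library total, and are not corrected for composition. Counts from all 18 libraries entered 1 fit of edgeR 4.0.16 under R 4.3.3, with TMM scaling and 1 mean per group (common biological coefficient of variation 7.69%), and filterByExpr kept 17631 genes. On simulated counts of 15655 genes for this contrast, 96% of genes changed 4-fold were called, with 4 calls among 15455 unchanged genes. Of genes changed 2-fold, 82% passed the adjusted p and 48% were called, since that change lies at the fold threshold. Only 100 genes were changed at each size, far fewer than were called in the data. With 3 against 3 samples, an exact permutation test cannot go below p = 0.1. The members, gene lists and rules were chosen with earlier results of these data known. Named genes were those the study follows, the 15 largest rises and 15 largest falls among called genes of at least 5 mean FPKM without overlap, the 10 largest gains and losses in FPKM, and the 4 called members of each list with the smallest p. Other members were named for comparison after their values were seen. Lists are described by counts and medians, with no set test. Alternatives were other scalings, filters and sample sets, a replicate block, single libraries left out, DESeq2 1.42.0, and limma 3.58.1 on log2 FPKM. Promoters were RefSeq windows of 300 bases. Some named genes are not reported here.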

Additional observations from a re-analysis of the deposited data

How the results depend on the processing

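Under all scalings, filters on low counts, sample sets and DESeq2, the counts of genes higher and lower stayed within 1.5 times those given. Scaling by library size alone gave 1582 and 2283, which moved the median of all genes by 0.0892, and leaving out single libraries gave 1268 to 1356 higher and 2425 to 2479 lower. The counts moved further when log2 FPKM was tested with limma after adding 0.5 (866 and 1214) or 1 (658 and 901), which shrinks the fold changes of low genes by construction, and with the adjusted p alone and no minimum fold change (5071 and 5299). Those limma fits also cut some list counts by over 1.5 times, among them genes lower in the cartilage (6 and 5) and BMP (4 and 4) lists, and with 1 added the higher thermogenic genes (5). Same-numbered replicates of AI and OI deviated together little (r = 0.0388, 0.0272 and 0.176). AI replicate 3 was the only AI library that correlated best with its own number. Its r with OI replicates 1 and 2 was negative (-0.0945 and -0.0940). Within each medium, replicate 3 differed more from the other replicates than those did from each other. Whether the libraries of replicate 3 share more than a number was not tested. The replicate block gave 1382 higher and 2494 lower. Of 208 named genes, 189 kept their direction and call under every one of the 19 alternatives that tested them. Apart from those the study follows, these genes were picked for large or clear differences in the same data. Their share therefore does not describe the called genes in general. Alpl changed sign with DESeq2's size factors or DESeq2 (-0.0033 each), upper-quartile scaling (-0.0063) and without OI replicates 2 and 3 together (-0.099), with values of -0.020 to 0.077 when single libraries were left out. Runx2 changed sign with upper-quartile scaling (-0.0026) and without OI replicates 2 and 3 (-0.040), with -0.027 to 0.050 for single libraries. Neither passed in any of these. Depth limits genes under about 10 reads a group, such as Fgf23, Gli1 and Abcc6.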

Other observations

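Gene families outside the lists were counted in the same way, beside 7.80% of all genes called higher and 14.1% called lower. They were picked after their values were seen, and several had no more calls than that. Of 17 peroxins, which build peroxisomes, 7 were higher and 0 lower (median 0.71), with Pex11a at 10.2 FPKM in AI and 1.73 in OI on average (2.47). Of 78 mitochondrial ribosomal proteins 2 were higher and 0 lower (median 0.34), and of 72 cytosolic ribosomal proteins 0 were called in either direction with edgeR or DESeq2 (median -0.063), although 12 had an unadjusted p under 0.05 in edgeR. Mitochondrial carriers were split, with 9 higher and 4 lower of 42. Of 38 proteasome subunits 1 was higher, Psma1, and 3 were lower, which were Psmb8, Psmb9 and Psmb10, the subunits of the immunoproteasome. Of 7 guanylate-binding proteins, which interferon induces, 5 were lower (median -3.08), and OI replicate 1 stands apart for such genes. Of 19 semaphorins, 3 were higher and 9 lower, and 4 of 6 small heat shock proteins were lower (median -2.47). Of 10 tubulins, 4 were lower (median -0.64). Of 23 peroxiredoxins and glutathione transferases, 2 were higher and 8 lower. Acyl-CoA thioesterases (3 higher and 3 lower of 11), phosphodiesterases (6 and 1 of 15), Hox genes (2 and 4 of 34) and genes of serine palmitoyltransferase and ceramide synthases (1 and 1 of 8) were the other families counted.

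One transcript without a gene symbol, ENSMUSG00002075787, had 33 reads in AI and 0 in OI. The AI libraries were uneven, at 0.95, 8.74 and 5.92 FPKM, with 0.45, 0.46 and 0.86 in CM. It lies within Ppargc1b on the opposite strand, and without a stated strand setting their reads cannot be told apart.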
